A study of Arabidopsis thaliana and Oryza sativa and Cucumis sativus with 30 samples.

Results

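Extensins are rod-like glycoproteins of the plant cell wall, and in the secretory pathway their prolines are hydroxylated and the resulting hydroxyprolines receive short chains of arabinose. In Arabidopsis, prolyl 4-hydroxylases (P4H) make the hydroxyproline, HPAT enzymes attach the first arabinose, RRA enzymes the second, XEG113 the third and EXAD the fourth, while SERGT1 places a galactose on the serine of the repeat. Mutants in several of these enzymes have short root hairs in Arabidopsis, which is why the genes are followed here in hair-forming cells.

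The 10 genes were P4H1, P4H2, P4H5 and P4H13, RRA1, RRA2 and RRA3, XEG113, SERGT1 and EXAD, out of 33550 genes in the Arabidopsis tables. They were taken by locus identifier as an enzyme group and not by a rule on their values, although earlier results of these data were known. All 10 were listed for sorted hair cells, 9 for sorted epidermis and 7 for sieved root hairs. P4H13 is not among the 17628 genes of the epidermis table, and P4H13, RRA1 and RRA2 are not among the 14919 genes of the sieved hair table, which holds genes with a mean of at least 3 FPKM (fragments scaled to transcript length and library size). The other prolyl 4-hydroxylases, the HPAT enzymes, the genes that supply UDP-arabinose, the galactosyltransferases of arabinogalactan proteins, and the extensins with the LRX proteins served as pathway lists of 9, 3, 8, 8 and 11 genes.

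Of 30 RNA sequencing libraries of 10 groups with 3 libraries each, 12 libraries of 4 Arabidopsis groups are used here. Wild-type WER::GFP and rhd6 WER::GFP seedlings both carry GFP under the promoter of WEREWOLF, active in root epidermis and lateral root cap, and rhd6 is a mutant in RHD6, a transcription factor of the basic helix-loop-helix (bHLH) family required for hairs to begin; which allele was used is not stated in the labels. COBL9::GFP seedlings carry GFP under the promoter of a gene of growing hair cells. The fourth group is sieved hairs, which the labels give with no reporter and no mutation. All plants are of the variety Columbia, were grown at 22 °C in constant light, and were taken 4 to 5 days after plating, per the labels. Root tips of many seedlings were pooled, digested to single cells and sorted for GFP, whereas hairs were broken from roots in liquid nitrogen and passed through a sieve.

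The 6 WER::GFP libraries held 10562137 to 23110648 reads in listed genes, and the depth of the FPKM libraries is unknown. RHD6 stood at 78.4 ± 6.09 (SD, n = 3) normalized CPM (reads scaled to library size by the authors) in wild type and at 1.40 ± 0.542 in rhd6, so each library matched its genotype label. The 5 hair cell markers summed to 623 to 1186 normalized CPM in wild type and to 19.2 to 113 in rhd6, while the 3 root cap markers summed to 153 to 183 and to 86.3 to 425. The rhd6 library 10019 had the most hair marker RNA and the most root cap marker RNA of its group, and the wild-type library 9489 the most hair marker RNA of all 6. All 3 wild-type library numbers are lower than all 3 rhd6 numbers, so a processing order, if the numbers stand for one, cannot be told apart from genotype. The design text calls replicates biological, and the sorted pools are bulk samples, in which fewer cells of a type and less RNA per cell cannot be told apart.

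Of the 9 measured genes, 3 were called lower in rhd6, namely P4H5, P4H2 and SERGT1, against 3.26% of all genes. The upstream sequence of these 3 is shown because they passed the test described below. Each stretch is the 250 bases before the annotated gene start, 5′ to 3′ on the strand of the gene, from the RefSeq assembly TAIR10.1, with every CANNTG (the E-box core that bHLH factors can contact) in capitals.
P4H5 chr2:7697061-7697310 (plus strand): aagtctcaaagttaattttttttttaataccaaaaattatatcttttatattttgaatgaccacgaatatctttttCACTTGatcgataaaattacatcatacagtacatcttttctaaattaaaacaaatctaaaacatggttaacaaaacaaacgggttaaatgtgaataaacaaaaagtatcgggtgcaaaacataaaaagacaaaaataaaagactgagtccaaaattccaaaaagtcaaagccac
SERGT1 chr3:265963-266212 (minus strand): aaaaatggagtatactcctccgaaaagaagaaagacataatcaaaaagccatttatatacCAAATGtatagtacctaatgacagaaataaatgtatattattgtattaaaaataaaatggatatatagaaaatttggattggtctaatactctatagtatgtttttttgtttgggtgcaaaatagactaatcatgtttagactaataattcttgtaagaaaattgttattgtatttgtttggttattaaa
P4H2 chr3:1907332-1907581 (plus strand): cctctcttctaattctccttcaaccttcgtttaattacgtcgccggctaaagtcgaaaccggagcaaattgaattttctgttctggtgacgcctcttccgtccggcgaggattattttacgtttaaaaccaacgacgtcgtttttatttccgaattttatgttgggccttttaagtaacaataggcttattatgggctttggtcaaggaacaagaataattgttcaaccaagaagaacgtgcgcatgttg
In P4H5 the capitals mark CACTTG, whose first base lies 174 bases before the start, and in SERGT1 they mark CAAATG at 190 bases before it. The P4H2 stretch holds none.

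Motifs were counted on both strands in windows from 250 bases before to 50 bases after each of 27443 protein-coding gene starts. CANNTG was found in 4 of the 10 windows of the enzyme genes (P4H5, SERGT1, RRA3 and XEG113) and in 61.7% of all windows. RRA3 has 3 matches, the nearest of them, CAGATG, 11 bases before its start. The palindromic form CACGTG, which is a subset of CANNTG, was found in 0 of 10 windows against 7.68% of all. The root hair element RHE, a longer motif known from Arabidopsis hair genes, was found in 0 of 10 windows against 0.867% of all. These are matches of letters in short windows and say nothing of binding.

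The comparison of sorted epidermis asks which enzyme genes differ when RHD6 is lost. P4H2, P4H5 and SERGT1 fell to between 32.6% and 45.7% of their wild-type means, and RRA3 (52.0%), XEG113 (61.9%) and EXAD (64.1%) had lower means that did not pass the test. P4H1 stood at 86.6% of wild type, and RRA1 and RRA2 were near 1 to 3 normalized CPM in both genotypes. By limma with Benjamini-Hochberg adjustment over 17575 genes, 3 of the 9 genes were lower (adjusted p below 0.05) and 0 higher, against 3.26% of all genes lower, 0.859% higher and 4.12% in either direction. At an unadjusted p below 0.05, 6 of 9 were lower, against 10.4% of all genes (17.1% in either direction). In 6 of 9 every rhd6 library lay below every wild-type library, against 14.3% of all genes. The median log2 fold change of the 9 genes was -0.67, and that of all genes 0.04.

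The calls depended on all but 1 of the libraries. Without wild-type library 8955, 9483 or 9489, or rhd6 library 9519, 0 of the 9 genes passed. Without rhd6 library 10018 only P4H5 passed, and without rhd6 library 10019 the count was 3. Over all genes, 573 were lower with 6 libraries, and 195, 165, 168 and 307 without library 8955, 9483, 9489 and 9519 in turn. The number was 446 without library 10018 and 683 without library 10019, out of 17242 to 17380 genes tested in these settings. Over all 13 alternatives, these included, the log2 fold change lay between -1.46 and -1.17 for P4H5, between -1.19 and -0.92 for P4H2 and between -1.78 and -1.26 for SERGT1. With all 6 libraries, edgeR on the recovered reads gave 3 lower and 0 higher, against 2.91% and 0.865% of all genes (3.78% in either direction). DESeq2 gave 4 lower and 0 higher, against 5.55% and 2.12% (7.67% in either direction). The authors' deposited table has 4 lower and 0 higher genes at an FDR below 0.05, against 4.96% lower and 6.67% in either direction.

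**Figure D1:**
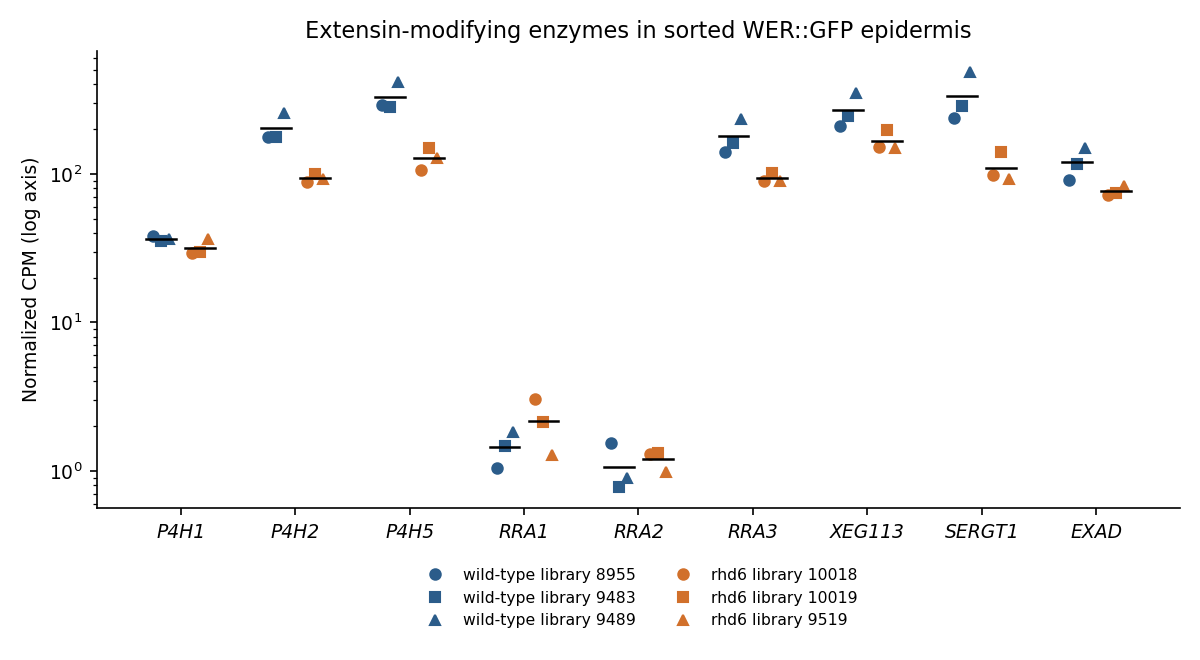
Normalized CPM (log axis) of the 9 listed enzyme genes in the 3 wild-type (blue) and 3 rhd6 (orange) WER::GFP libraries; each symbol is a library and each bar a group mean. The groups do not overlap for P4H2, P4H5, RRA3, XEG113, SERGT1 and EXAD, and they overlap for P4H1, RRA1 and RRA2.

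The hydroxylases act first in the pathway. P4H5 (AT2G17720, chr2:7697311-7699630 of TAIR10.1, plus strand) is a hydroxylase needed for normal hair growth in Arabidopsis. It measured 289, 282 and 413 normalized CPM in wild-type libraries 8955, 9483 and 9489, and 107, 150 and 127 in rhd6 libraries 10018, 10019 and 9519. The groups did not overlap, and wild-type library 9489 was the highest. Means were 328 ± 73.3 and 128 ± 21.8 (SD, n = 3 each), a log2 fold change of -1.34 on the log2(value + 1) scale (95% interval -1.89 to -0.80, limma adjusted p = 0.0193).

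P4H2 (AT3G06300, chr3:1907582-1910063, plus strand), another hydroxylase of growing hairs, measured 177, 177 and 256 normalized CPM in the wild type and 87.9, 99.4 and 91.8 in rhd6. The 3 rhd6 libraries lay close together, and again library 9489 was the highest. The log2 fold change was -1.10 (95% interval -1.59 to -0.61, limma adjusted p = 0.0271). P4H2 overlaps a non-coding gene on the other strand, AT3G00190, over 88 bases, and the labels do not state whether counting used strand, so reads of the overlap cannot be assigned.

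P4H1 (AT2G43080, chr2:17915448-17918826, plus strand), a hydroxylase expressed widely in the plant, measured 37.9, 35.3 and 36.4 normalized CPM in wild type and 29.1, 29.7 and 36.2 in rhd6. The rhd6 library 9519 lay inside the wild-type range, and the estimate of -0.21 had a 95% interval of -0.60 to 0.19 (limma adjusted p = 0.558). The interval of P4H1 lay above the point estimates of P4H2 and P4H5, although the difference between genes was not tested. P4H13 (AT2G23096, chr2:9834766-9836309, minus strand), also tied to hair growth in Arabidopsis, has no value in this comparison.

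RRA3 (AT1G19360, chr1:6690399-6692566, minus strand), which adds the second arabinose, measured 141, 162 and 235 normalized CPM in wild type and 89.5, 101 and 89.8 in rhd6. The groups did not overlap. The estimate was -0.90 (95% interval -1.44 to -0.37), with an adjusted p of 0.0841 by limma and 0.0124 by DESeq2. The authors' deposited table gives RRA3 an FDR of 0.0483, so its call depends on the test. RRA3 shares 818 bases with BES1 on the opposite strand, which stood at 39.6 normalized CPM in wild type and 34.8 in rhd6 (log2 fold change -0.21, limma adjusted p = 0.708).

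Its paralogs RRA1 (AT1G75120, chr1:28196857-28198945) and RRA2 (AT1G75110, chr1:28194005-28196033) are neighbours on the minus strand and were hardly expressed. RRA1 measured 1.05, 1.47 and 1.83 normalized CPM in wild type and 3.06, 2.13 and 1.29 in rhd6, that is, 84 and 124 reads in all. RRA2 measured 1.53, 0.776 and 0.890 and then 1.30, 1.32 and 0.975, from 53 and 69 reads. The groups overlapped for both genes, and with limma the 95% interval was -0.27 to 0.95 for RRA1 and -0.39 to 0.60 for RRA2. Their coding sequences are 84.0% identical, with a longest shared run of 50 bases, so the split of reads between RRA1 and RRA2 is uncertain; RRA2 also overlaps JAC1 over 64 bases of the same strand.

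XEG113 (AT2G35610, chr2:14947343-14951372, minus strand), which adds the third arabinose, measured 209, 247 and 351 normalized CPM in wild type and 153, 198 and 148 in rhd6. The groups stood apart by a small gap, between 198 in rhd6 library 10019 and 209 in wild-type library 8955. The estimate was -0.67 (95% interval -1.25 to -0.08, limma adjusted p = 0.234). EXAD (AT3G57630, chr3:21339274-21343965, minus strand), which adds the fourth arabinose, measured 91.4, 117 and 150 normalized CPM in wild type and 72.1, 74.5 and 82.9 in rhd6. Its groups did not overlap either, and its estimate was -0.61 (95% interval -1.12 to -0.10, limma adjusted p = 0.211). It overlaps AT3G57620 over 28 bases on the other strand.

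SERGT1 (AT3G01720, chr3:262142-265962, minus strand), the serine galactosyltransferase, had the lowest estimate of the group. It measured 237, 284 and 489 normalized CPM in wild type and 97.5, 140 and 92.0 in rhd6. Library 9489 stood far above the other wild-type libraries, and library 10019 above the other rhd6 libraries. Means were 337 ± 134 and 110 ± 26.2 (SD, n = 3 each), and the log2 fold change was -1.56 (95% interval -2.29 to -0.83, limma adjusted p = 0.0342). Without library 9489 the estimate was -1.26 and without library 8955 it was -1.78.

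In wild type, library 9489, highest in hair marker RNA, was also the highest for P4H2, P4H5, RRA3, XEG113, SERGT1 and EXAD. Below the top the ranks differed. Library 8955 had more hair marker RNA than library 9483 (735 and 623 normalized CPM). It was lower than library 9483 for RRA3, XEG113, SERGT1 and EXAD, higher for P4H5 and about equal for P4H2. The part of hair cell number or of root cap RNA in these differences was not tested.

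The enzymes were compared with the rest of their pathway. Of the HPAT enzymes, which add the first arabinose, 1 of 3 was lower by limma, against 3.26% of all genes. HPAT3 measured 152, 157 and 234 normalized CPM in wild type and 46.6, 74.0 and 60.3 in rhd6, a log2 fold change of -1.57 (limma adjusted p = 0.0141). HPAT2 (-1.08, adjusted p = 0.232) and HPAT1 (-0.51, adjusted p = 0.463) did not pass by limma, and the groups overlapped for both. The median estimate of the 3 HPAT genes was -1.08, against 0.04 over all genes tested. Without library 8955, 9483, 9489 or 9519 the HPAT count was 0, and that of all genes fell from 573 to 195, 165, 168 and 307.

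Among the 9 other prolyl 4-hydroxylases, 6 were tested, and 0 passed in either direction by limma, edgeR or DESeq2. Of all genes, 4.12%, 3.78% and 7.67% passed by these tests in turn. Against 17.1% of all genes, 1 of the 6 had an unadjusted limma p below 0.05. That gene was P4H4, the closest of the family to P4H2 in coding sequence (83.6% identity), at 58.7 normalized CPM in wild type and 40.6 in rhd6 (log2 fold change -0.54, limma adjusted p = 0.214). P4H10 followed at 36.0 and 31.3 (log2 fold change -0.19), although P4H3 and P4H12 had positive estimates. The median of the 6 was -0.08.

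Of the 8 genes that make, interconvert or carry UDP-arabinose, 6 were tested and 0 passed by limma or edgeR. Of all genes 4.12% and 3.78% passed in either direction. By limma 4 had an unadjusted p below 0.05, against 17.1% of all genes. DESeq2 called 3 lower, against 5.55%. RGP1, a mutase that converts UDP-arabinose from its pyranose to its furanose form, measured 1030, 1046 and 1477 normalized CPM in wild type and 560, 424 and 592 in rhd6 (log2 fold change -1.17, limma adjusted p = 0.0645). RGP2, its close partner, measured 1746, 1576 and 1849 and then 771, 865 and 967 (log2 fold change -0.99, limma adjusted p = 0.0914). Neither pair of groups overlapped. The median of the 6 was -0.81.

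The 8 galactosyltransferases of arabinogalactan proteins act on hydroxyproline as well, but start another kind of glycan. None of the 8 passed by limma, edgeR or DESeq2, against 4.12%, 3.78% and 7.67% of all genes in either direction. By limma 0 had an unadjusted p below 0.05, against 17.1% of all genes. With so few genes, counts of 0 do not set the list apart from all genes. The estimates of the 8 ranged from -0.15 to 0.37 with a median of -0.01. GALT5 (40.3 and 52.7 normalized CPM, estimate 0.37) and GALT3 (12.7 and 15.5, estimate 0.27) had the smallest p-values of the list. In these 2 of the 8 every rhd6 library lay above every wild-type library, against 13.2% of all genes.

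Of the 11 extensins and LRX proteins, the substrates or likely substrates of these enzymes, 8 fell and 0 rose by limma. Of all genes 3.26% were lower and 0.859% higher. The median estimate of the list was -3.80. The 8 were EXT6, EXT10, EXT12, EXT13, HRGP1, AT4G08400, AT5G06630 and LRX1. EXT10 measured 368, 418 and 721 normalized CPM in wild type and 7.47, 49.5 and 13.5 in rhd6 (log2 fold change -4.71, limma adjusted p = 0.00565). EXT4 (estimate 1.19), LRX2 (-0.42) and EXT3 (0.11) did not pass by limma, and EXT4 is listed as higher in the authors' deposited table with an FDR of 0.0454. Extensin genes are repetitive and alike in sequence, so reads may be split among them. edgeR called 4 of the list lower, against 2.91% of all genes. By limma the count was 3 without library 8955, 9483, 9489 or 9519 and 5 without library 10018. Over all genes those settings gave 195, 165, 168, 307 and 446 lower in turn.

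**Figure D2:**
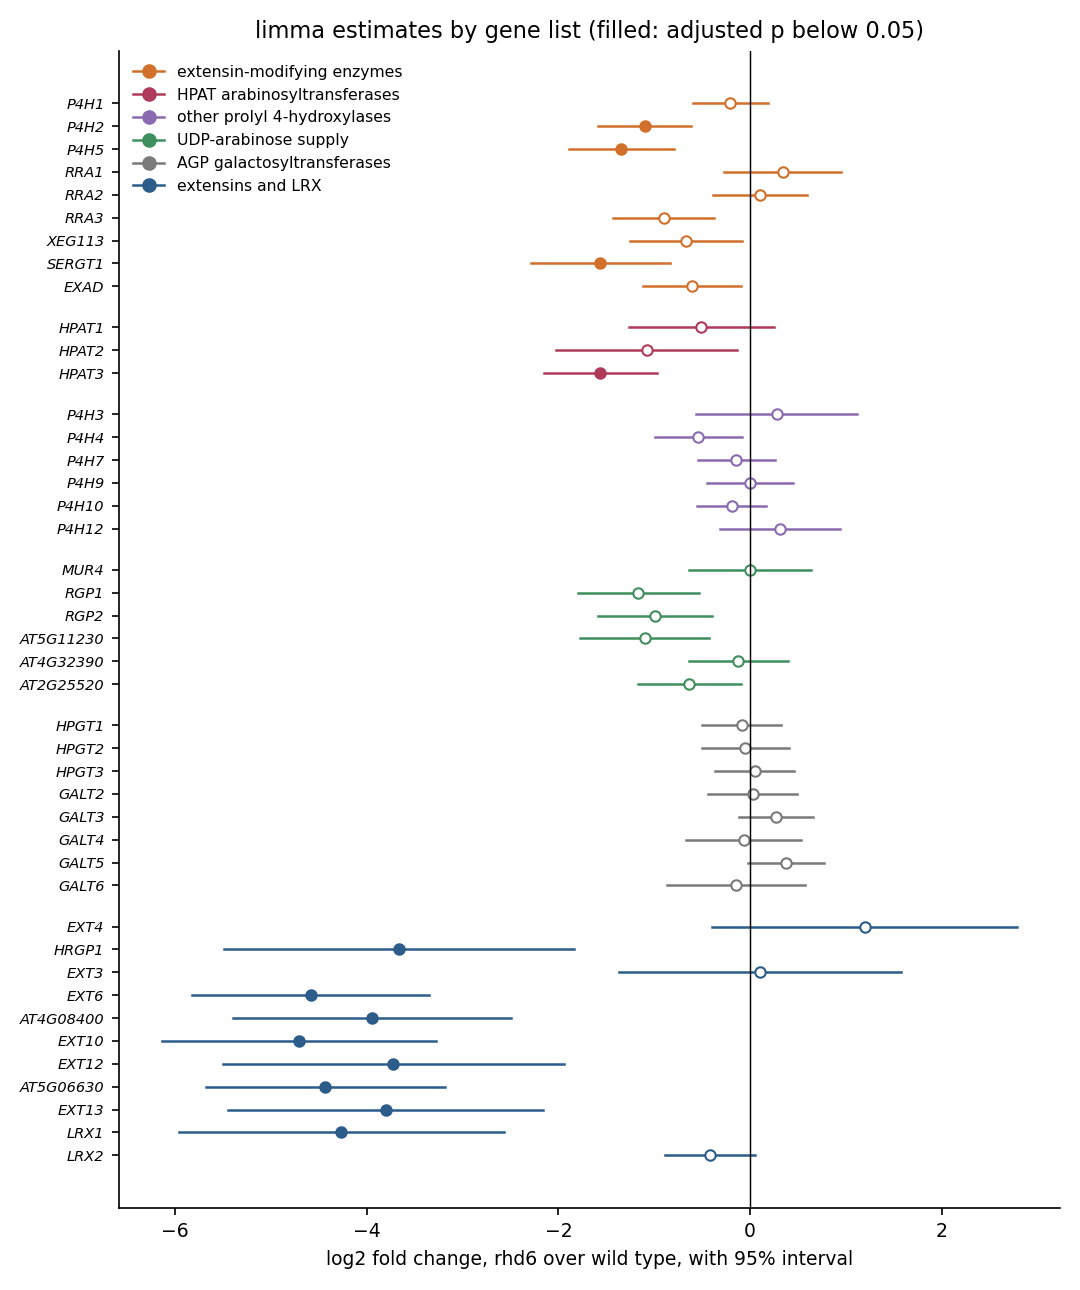
Log2 fold change of rhd6 over wild type (limma, log2(value + 1) scale) with 95% intervals for the enzyme genes and 5 pathway lists; filled points have an adjusted p below 0.05. P4H2, P4H5, SERGT1 and HPAT3 lie between -1.10 and -1.57, and the 8 called extensin and LRX genes between -3.67 and -4.71.

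Sizes of the change can be read library by library as a percentage of the wild-type mean. The median of the 9 enzyme genes was 56.8%, 62.4% and 55.2% in rhd6 libraries 10018, 10019 and 9519. For the extensin and LRX list it was 2.35%, 17.5% and 5.05%, and for the 5 hair markers 1.99%, 13.2% and 4.68%. For the galactosyltransferases of arabinogalactan proteins it was 113%, 91.0% and 113%. The enzyme genes thus stood at 55.2% or more of the wild-type mean at the median in each rhd6 library, whereas hair markers and extensins varied by several fold among the same libraries. P4H5 ranged from 32.5% to 45.8%, SERGT1 from 27.3% to 41.6% and P4H2 from 43.2% to 48.8%, and all 3 were highest in library 10019.

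**Figure D3:**
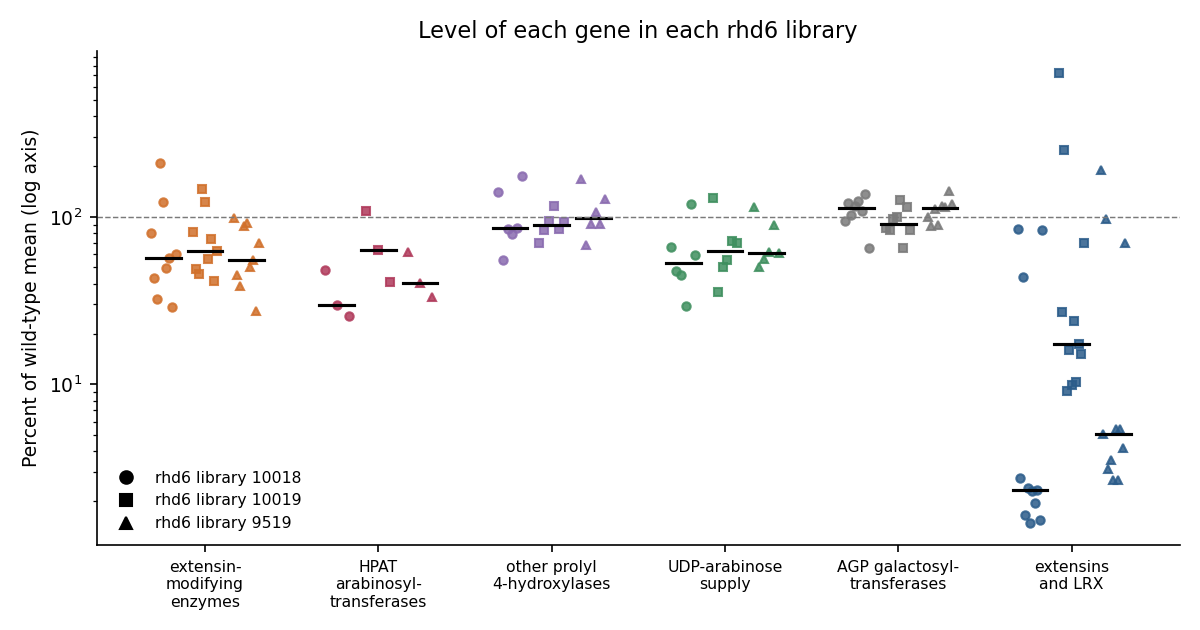
Level of each tested gene in each rhd6 library as a percentage of its wild-type mean (log axis), by list; bars are medians and the dashed line is the wild-type mean. The medians of the enzyme genes lie between 55.2% and 62.4%, and those of the extensin and LRX list between 2.35% and 17.5%.

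Genes with the most similar pattern were sought among 13833 genes by Pearson's r of log2(value + 1) over the 6 libraries. This is a description only: the 6 libraries include both genotypes, so a shared difference between genotypes raises r. The gene most like P4H2 was AT1G11660 (r = 0.998), followed by AT4G31020 and GATA26. For P4H5 they were AT4G17100, HPAT3 (r = 0.999) and AT5G24313. For SERGT1 they were AT5G58510, AT5G43400 and AT1G15490. P4H2 and P4H5 ranked 59 or better in each other's lists, while P4H1 ranked 2669 for P4H2 and 2628 for P4H5.

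In sorted COBL9::GFP cells, levels can be compared between genes because FPKM is per length. Of the 10 genes, 7 carried the authors' mark for expressed genes, and P4H13, RRA1 and RRA2 did not. P4H5 had the highest level, 494, 226 and 322 FPKM in libraries A, B and C, named in the column order of the table (348 ± 136, SD, n = 3), above 99.0% of the 33550 listed genes by its mean. P4H2 followed with 323, 131 and 216 FPKM (223 ± 96.2), and SERGT1 with 243, 105 and 160 (169 ± 69.3). The order of means continued with XEG113, RRA3, EXAD, P4H1, P4H13, RRA2 and RRA1.

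The arabinosyltransferases stood at different levels. XEG113 measured 189, 84.8 and 130 FPKM and RRA3 177, 66.7 and 102. EXAD was lower, at 63.2, 30.7 and 39.0 FPKM, and its range did not overlap that of RRA3. Among P4H5, P4H2, SERGT1, XEG113 and RRA3, each gene was higher than the next in 3 of 3 libraries, although the ranges of neighbours overlapped. P4H1 measured 32.2, 33.0 and 36.1 FPKM and was below EXAD in 2 of 3 libraries.

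P4H13 measured 1.25, 0.479 and 0.770 FPKM, RRA1 0.243, 0.264 and 0.364, and RRA2 0.167, 0.364 and 0.595. The range of RRA2 overlaps those of P4H13 and RRA1, P4H13 and RRA1 do not overlap, and all 3 lie below P4H1. RRA3 thus held 99.8%, 99.1% and 99.1% of the summed FPKM of the RRA genes. P4H2 and P4H5 together held 82.0%, 67.9% and 74.4% of the summed FPKM of all 13 prolyl 4-hydroxylases. The next hydroxylases in mean level were P4H4 at 57.9 ± 14.8 FPKM and P4H10 at 35.9 ± 2.86 (SD, n = 3).

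In sieved hairs the 7 listed genes were closer together. P4H2 measured 214, 72.2 and 106 FPKM in libraries 1, 2 and 3 (131 ± 74.0, SD, n = 3), above 91.8% of the 14919 listed genes, and P4H5 measured 125, 68.0 and 119 (104 ± 31.2). RRA3 measured 129, 57.5 and 50.04 FPKM, SERGT1 104, 44.9 and 59.1, and XEG113 82.7, 64.4 and 52.8. Each of these was highest in library 1.

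P4H1 went the other way, with 12.7 FPKM in library 1, 81.3 in library 2 and 47.0 in library 3. EXAD was the lowest by mean, at 31.1, 13.2 and 30.7 FPKM. Ranges of all neighbours in the order overlapped, and each step of the order held in 2 of 3 libraries, so the order is not fixed by these samples. P4H2 and P4H5 together held 70.9%, 35.4% and 53.6% of the summed FPKM of the 8 listed prolyl 4-hydroxylases. The 2 FPKM tables were made from different preparations and normalized separately, so levels were not compared between them.

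**Figure D4:**
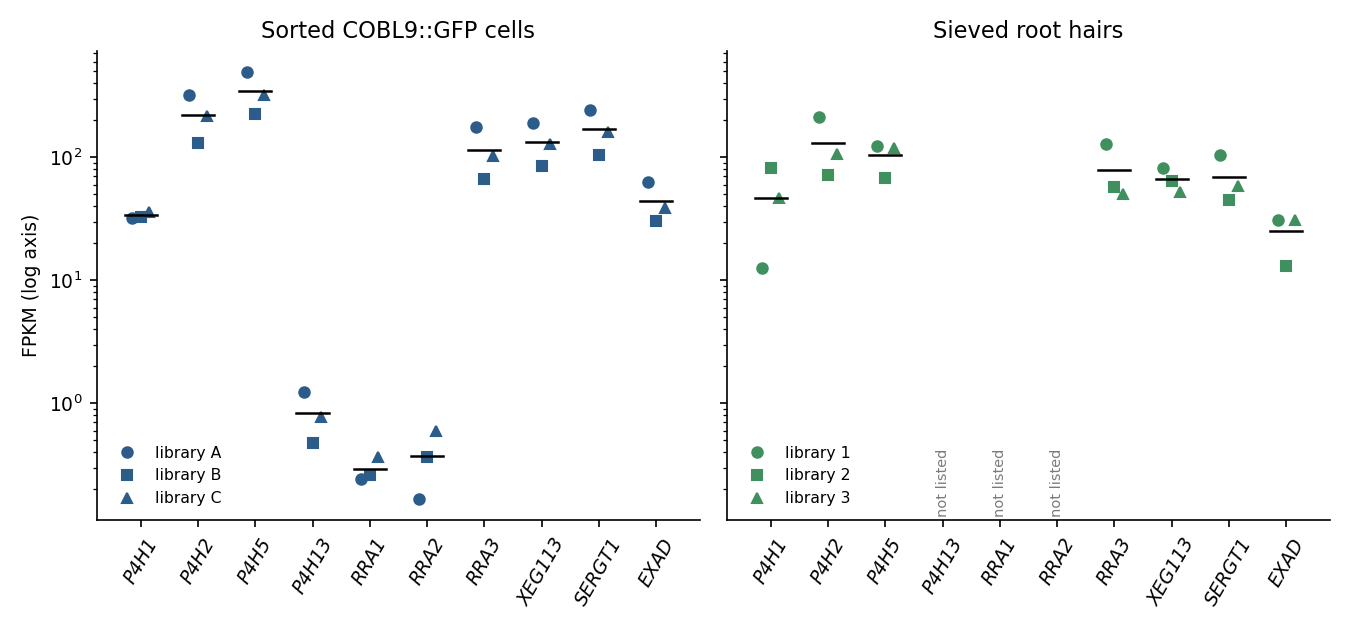
FPKM (log axis) of the enzyme genes in the 3 COBL9::GFP libraries (left) and the 3 sieved hair libraries (right); symbols are libraries, bars are means, and genes absent from the table are marked as not listed. P4H5 and P4H2 have the highest means in both panels, and P4H13, RRA1 and RRA2 lie at 1.25 FPKM or lower on the left.

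Most of the enzyme genes also differed between libraries of 1 group. In COBL9::GFP cells, 7 of the 10 genes, P4H13 among them, were highest in library A and lowest in library B. Taken singly, each of these conditions also held for 7 of the 10 genes. Of the 16164 genes with a mean of at least 1 FPKM, 5546 were highest in A and 6283 were lowest in B. How many of the 16164 met both conditions was not counted. The median ratio of A to B was 2.20 over the 10 genes, against 0.924 over those 16164 genes (those above 0 in every library). The 10 include P4H13, RRA1 and RRA2, whose means were below 1 FPKM. The ratio was 2.46 for P4H2, 2.18 for P4H5 and 0.977 for P4H1. RRA1 (0.919) and RRA2 (0.459), both below 1 FPKM, were highest in library C. The 3 HPAT genes had a median ratio of 2.40, the other prolyl 4-hydroxylases 0.890 and the galactosyltransferases of arabinogalactan proteins 0.677. Hair markers summed to 1686 FPKM in library A and 440 in library B, and root cap markers to 31.0 and 477. The 3 cortex and endodermis markers, at low levels, summed to 11.2 and 1.55 FPKM, and the 4 stele markers to 6.21 and 2.49. Of the epidermis and non-hair markers, GL2 measured 24.7 and 7.27 FPKM and WER 8.26 and 17.1. Their part in the levels of the enzyme genes was not tested.

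In sieved hairs, 6 of the 7 listed genes were highest in library 1, against 4080 of all 14919 listed genes. Their median ratio of library 1 to library 2 was 2.25, against 0.726 over all listed genes above 0 in every library. P4H1 had a ratio of 0.156 and was highest in library 2. So were 6816 of the 14919 listed genes and 4 of the 5 other listed prolyl 4-hydroxylases. Hair markers summed to 1962, 536 and 535 FPKM in libraries 1, 2 and 3, although RHD6 and RSL4 were highest in library 2. The 2 listed markers of cortex and endodermis, SCR and CASP1, summed to 54.3 FPKM in library 2 and 7.83 in library 3 and were listed at 0 in library 1. The 2 listed of 4 stele markers, SHR and PHB, summed to 0.0254, 35.7 and 31.2 FPKM in libraries 1, 2 and 3. Whether cells other than hairs set the level of P4H1 in library 2 was not tested.

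**Figure D5:**
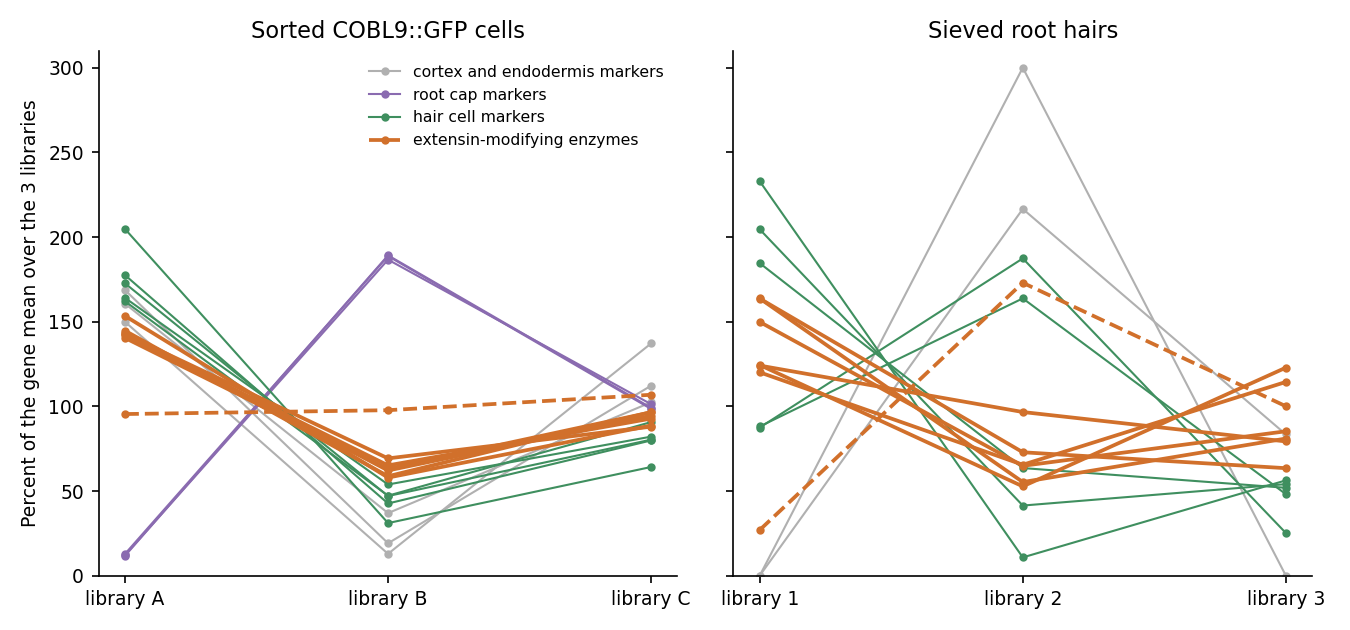
Each line is a gene, drawn as a percentage of its own mean over the 3 libraries, for genes with a mean of at least 1 FPKM in COBL9::GFP cells (left) and sieved hairs (right); orange is the enzyme genes, with P4H1 dashed, and the other colours are cell type markers. P4H13, RRA1 and RRA2 lie under that level and are not drawn. On the left all solid orange lines fall from library A to library B, as do the hair markers and the cortex and endodermis markers. Root cap markers rise, and P4H1 stays level at a ratio of 0.977.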

How the data were processed

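RNA was sequenced from sorted cells (TruSeq) and sieved hairs (SMART-Seq v4), per the labels' protocols, with the annotation of Ensembl Plants for TAIR10. Per the submitters' processing notes, Cufflinks, edgeR, HTSeq 0.6.1, CASAVA 1.8.2 and 2 versions of TopHat2 (2.0.9 and 2.0.3) were involved in roles not stated there. The deposited epidermis table holds a signal of normalized CPM from the authors, as the headers and the values show; 100% of values lay within 0.01 of a whole multiple of 1 read, and these recovered reads served the count tests. Per the file headers it also holds log2 fold changes, mean levels in log2, p-values with an FDR, and a score (a likelihood ratio) and other marks from the authors. FPKM in the remaining tables come from the authors, per the file headers, and one table marks expressed genes. An FPKM of 0 can be a failed estimate.

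Groups came from the labels. limma 3.58.1 in R 4.3.3 was run two-sided with an intensity trend on log2(value + 1) for genes that reached 1 in 3 or more libraries, which understates changes of low genes; all 9 listed enzyme genes passed. No source used here gives the rule by which genes entered the epidermis table. edgeR 4.0.16 and DESeq2 1.42.0 were alternatives, with a pseudocount of 0.1, other filters (none, or a mean of 5 or more), other scalings and leaving out each library. Members and lists were chosen with earlier results of these data known. Named genes were all members, RHD6, the genes of each list past the threshold and the 2 with the smallest p otherwise, and the 3 genes most like each called member; others were named after their values were seen. Sequences, names and positions came from RefSeq TAIR10.1, joined by locus identifier, while the tables use TAIR10. Coding sequences were aligned with Biopython 1.88, and Python 3.11.15 with pandas 2.3.3 and matplotlib 3.10.9 was used for the rest. The limma and edgeR fits were tested on simulated data, with a check on the sign of the change.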

Additional observations from a re-analysis of the deposited data

How the results depend on the processing

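No member changed sign under any of the alternatives that gave it a value (13 for most, 12 for RRA1 and 9 for RRA2). P4H5 passed in 9 of 13 alternatives (adjusted p 4.15e-05 to 0.0952), and P4H2 (0.000290 to 0.122) and SERGT1 (0.000197 to 0.147) each in 8 of 13; every lost call came from leaving out a library, which leaves 2 libraries in a group. Among these alternatives RRA3 passed by DESeq2 only, and the authors' deposited table gives it an FDR of 0.0483. The count of lower members ranged from 0 to 3 when 1 library was left out, that of lower HPAT genes from 0 to 1, and that of lower extensins and LRX genes from 3 to 8, with 4 by edgeR. Over all genes, 573 were lower and 151 higher; a mean of 5 or more gave 359 and 72, DESeq2 976 and 372, and leaving out a library 165 to 683 lower and 42 to 122 higher. For the UDP-arabinose list, DESeq2 gave 3 lower, and 1 gene was higher without a filter or without the authors' scaling factors. Scaling choices moved the median log2 fold change of all genes to at most 0.09. COBL9::GFP percentiles among genes at 3 FPKM or more were 69.0 to 97.3, without P4H13, RRA1 and RRA2, which lie under that level. Among all listed genes the same members stood at 88.2 to 99.0. Leaving lower genes out of the ranking lowers a percentile by construction. The cause of the other shifts was not tested. No paired analysis was possible because the table's columns carry library numbers that the labels do not tie to replicate numbers. Depth limits RRA1 and RRA2, with 53 to 124 reads per group.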

Other observations

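The HPAT genes, whose products start the arabinose chain, ranked differently in the hair tables. In COBL9::GFP cells HPAT3 had the highest mean of the 3, at 159 ± 71.9 FPKM (SD, n = 3), followed by HPAT1 at 96.4 ± 17.9 and HPAT2 at 72.3 ± 43.4. In sieved hairs HPAT3 had the lowest mean, at 22.5 ± 9.46 FPKM, against 84.9 ± 13.1 for HPAT1 and 42.3 ± 15.8 for HPAT2. HPAT1 was the highest of the 3 in each sieved library. The tables were normalized separately, and the difference in order was not tested.

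The mutases RGP1 and RGP2 supply UDP-arabinofuranose. In COBL9::GFP cells RGP2 measured 1455 ± 287 FPKM and RGP1 1120 ± 374, above 99.9% and 99.8% of listed genes, while RGP3 measured 0.902 ± 0.156. In sieved hairs RGP2 measured 680, 178 and 234 FPKM and RGP1 115, 99.0 and 100.2, so RGP1 was below RRA3 (129 FPKM) in library 1 there. MUR4, the epimerase that makes UDP-arabinose from UDP-xylose, measured 67.7 ± 13.2 FPKM in COBL9::GFP cells and was listed at 0 in sieved library 1. The promoter windows of RGP1, RGP2 and RGP3 each held CACGTG, so 3 of the 8 genes of the supply list did, against 7.68% of all windows.

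AT5G25400, listed here with the UDP-arabinofuranose transporters, had 0 reads in all 3 wild-type WER::GFP libraries and 0.903, 3.07 and 1.91 normalized CPM in the rhd6 libraries, from 110 reads. It reached 1 normalized CPM in 2 of the 6 libraries and so was not tested. Without that filter, or without the authors' scaling factors, limma gave it an adjusted p of 0.0274 or lower. The authors' deposited table lists it as higher in rhd6, with a log2 fold change of 8.21 and an FDR of 2.86e-11; with 0 reads in wild type, a fitted fold depends on the prior count and is no bound. It was at most 0.108 FPKM in COBL9::GFP cells. Of the others listed with those transporters, AT5G11230 measured 207 ± 13.3 normalized CPM in wild type and 101 ± 35.1 in rhd6 (SD, n = 3 each). Its log2 fold change was -1.10 (limma adjusted p = 0.0968, DESeq2 adjusted p = 0.0238). The authors' deposited table gives it an FDR of 0.0421. AT2G25520 (-0.63) and AT4G32390 (-0.12) did not pass by limma or DESeq2.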
